A study of Rattus norvegicus with 4 samples.

Results

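Transcripts of the sodium pump and of chloride cotransport were followed in rat soleus, a hindlimb muscle of mainly slow fibres that holds posture, after repeated daily unloading. The genes described are Atp1b1 and Atp1b2, which encode beta subunits of the sodium pump, Fxyd1, which encodes phospholemman, Slc12a2, which encodes the sodium-potassium-chloride cotransporter NKCC1, and Stk39, which encodes the kinase SPAK. Every probe set annotated to 1 of these 5 symbols was taken, which gave 15 of the 8740 probe sets that are not array controls, for 5 of 4736 genes that a probe set names alone. A probe set is a group of short oligonucleotides on an Affymetrix array that is read as 1 signal, and some probe sets can match more than 1 transcript. The genes were chosen by their unloaded-against-control differences in these same 4 arrays, so their differences between groups are given as a description of where they stand in the table-wide fit and are no independent evidence.

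Female rats either had their hindlimbs unloaded for 10 h per day during 11 days (unloaded), or lived in cages with normal standing and walking (control). The labels name no transgene and no agent for either group, and the sources used here name no strain or age. There were 2 arrays per group, each hybridised with soleus RNA combined from 4 to 5 rats. A replicate is therefore a pool, and SDs describe the spread between pools rather than between animals. SEs and p-values also rest on spread between pools, which the fit takes in part from other probe sets.

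The sodium pump moves sodium out of the fibre and potassium into it after each action potential, and it works as a catalytic alpha subunit joined to a glycosylated beta subunit that the enzyme needs to reach the membrane. Phospholemman is a small membrane protein of the FXYD family that restrains the muscle pump until it is phosphorylated. NKCC1 carries sodium, potassium and chloride inward together, and SPAK, itself switched on by WNK kinases, phosphorylates and activates it. In skeletal muscle these proteins set the ion gradients on which excitability depends.

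Of the 15 probe sets, 14 were bright enough to be tested (a mean signal of at least 21.0 over the 4 arrays). In the table-wide limma fit with Benjamini-Hochberg adjustment 4 of the 14 were called higher in unloaded soleus at an adjusted p under 0.05, 0 were called lower, and 10 did not pass. At an unadjusted limma p under 0.05, 5 were higher and 2 lower, and 1092 of all 5257 tested probe sets were under that value in either direction. The background over all 5257 tested probe sets was 5.25% called in either direction, 2.59% higher and 2.66% lower. Because this comparison was known when the genes were picked, nothing is read from the difference between those shares. The median log2 fold change was 0.18 over the 14 probe sets and 0.00 over all tested ones. Fold changes are unloaded minus control on the log2(signal + 9) scale, where the added 9 shrinks the fold of weak signals.

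The highest and lowest values both came from genes whose probe sets did not agree among themselves. On every Atp1b1 probe set both unloaded pools lay above both control pools, as on 25.5% of all tested probe sets. Stk39, Slc12a2 and Atp1b2 each gave a different answer depending on the probe set read.

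**Figure D1:**
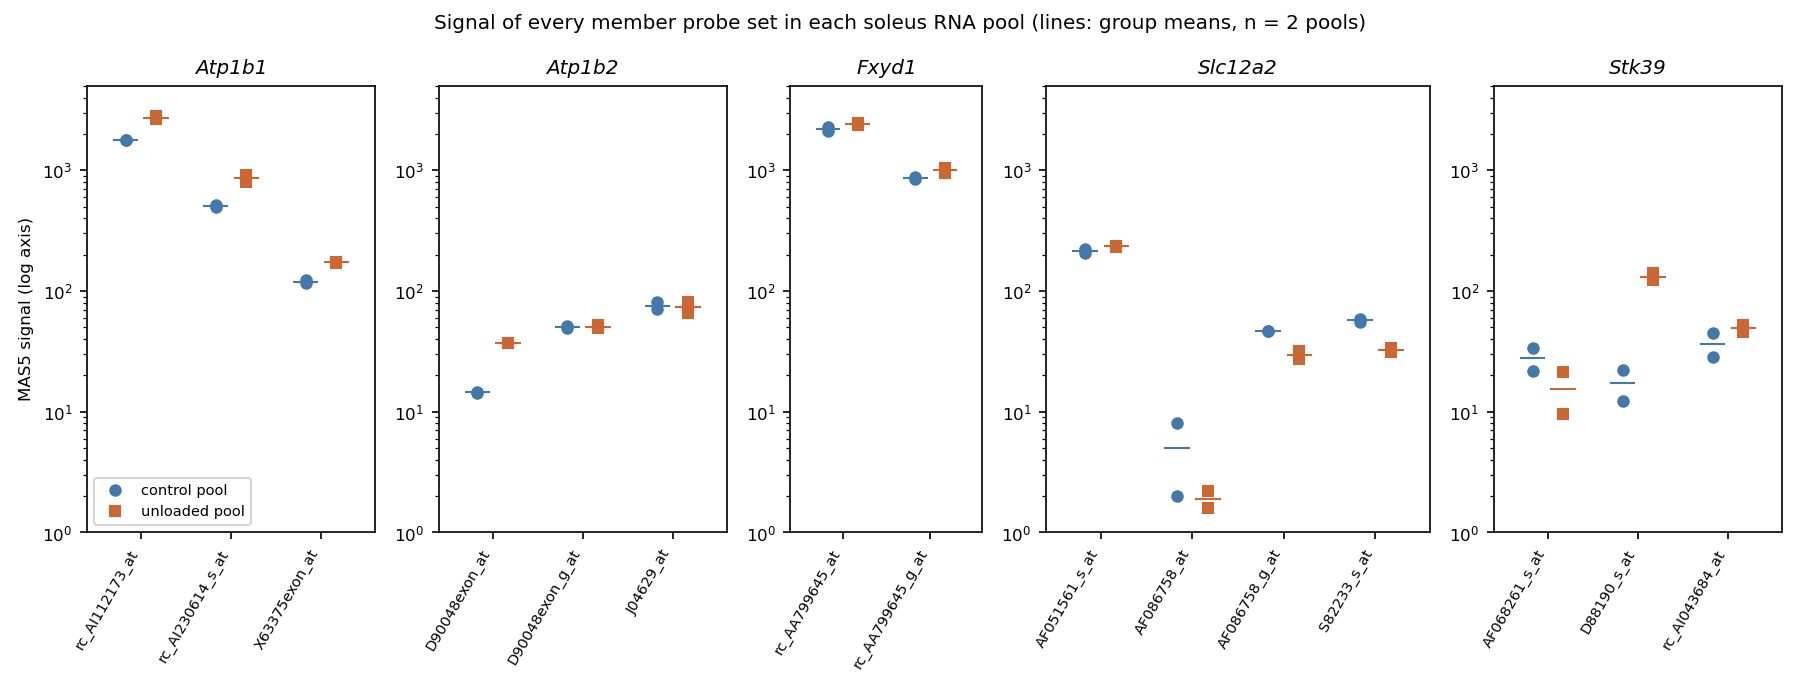
MAS5 signal (log axis) of the 15 probe sets in each pool, circles for the 2 control and squares for the 2 unloaded pools, with lines at group means. The Stk39 probe set D88190_s_at goes from 12.4 and 22.1 to 122.4 and 140.9. All 3 Atp1b1 probe sets have both unloaded pools above both control pools, as do 25.5% of all tested probe sets.

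RefSeq promoter sequences (assembly GRCr8) are shown for Stk39 and Atp1b2, the 2 genes with a called probe set that the promoter table held; Atp1b1 was the other called gene. Each run covers 250 bases before to 50 bases after the start used in that table, 5′ to 3′ on the minus strand, where both genes lie. Capitals mark matches on either strand to the GC box GGGCGG, the TATA box TATAAA and the E-box CANNTG, and these letters are a description of the window and not of factor binding.
Stk39, chr3:73586930-73587229: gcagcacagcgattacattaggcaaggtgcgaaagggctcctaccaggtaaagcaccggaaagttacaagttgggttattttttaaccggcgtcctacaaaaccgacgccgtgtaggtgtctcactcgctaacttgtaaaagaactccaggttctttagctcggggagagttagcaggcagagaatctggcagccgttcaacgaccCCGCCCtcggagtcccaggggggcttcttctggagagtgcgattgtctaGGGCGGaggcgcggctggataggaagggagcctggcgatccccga
Atp1b2, chr10:54823659-54823958: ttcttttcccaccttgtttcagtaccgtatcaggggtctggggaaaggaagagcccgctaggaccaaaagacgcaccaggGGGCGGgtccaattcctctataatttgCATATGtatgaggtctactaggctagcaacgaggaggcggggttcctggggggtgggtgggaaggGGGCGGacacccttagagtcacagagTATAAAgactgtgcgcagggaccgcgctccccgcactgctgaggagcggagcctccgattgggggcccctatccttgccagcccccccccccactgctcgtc

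The Stk39 window held 2 GC boxes and no TATA box or E-box letters. The Atp1b2 window held 2 GC boxes, 1 TATA box and 1 E-box. Over 33469 promoters of the same length in the table, 33.1% held the GC box, 14.2% the TATA box and 72.1% the E-box, and no overlap between the marked motifs occurred in either window.

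The beta1 subunit transcript Atp1b1 was read by 3 probe sets. The signal of rc_AI112173_at was 1799.8 and 1774.4 in the control pools and 2832.1 and 2646.1 in the unloaded pools. Both unloaded pools were high and the groups did not overlap, with ratios of 1.47 to 1.60 over the 4 pairings of an unloaded with a control pool. This probe set rose by 0.61 log2 (SE 0.09, limma adjusted p = 0.00748).

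A further Atp1b1 probe set, rc_AI230614_s_at, gave 497.3 and 514.3 in control and 916.2 and 797.1 in unloaded pools. It rose by 0.75 log2 (SE 0.10, limma adjusted p = 0.00720), with pair ratios of 1.55 to 1.84. Its ending _s_at marks probes that may match more than 1 transcript. The remaining Atp1b1 probe set, X63375exon_at, gave 116.7 and 122.7 against 171.3 and 173.8. Its groups did not overlap either, and its log2 fold change was 0.50 (SE 0.12, limma adjusted p = 0.0514), just outside the threshold. The 95% intervals of the 3 probe sets overlapped, running from 0.41 to 0.81, 0.51 to 0.99 and 0.23 to 0.77.

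Both Atp1b1 calls held without unloaded pool 2, at 0.66 and 0.85 log2 (limma adjusted p of 0.0431 and 0.0410), and were lost when any 1 of the other pools was left out. For rc_AI112173_at the log2 fold change was 0.62 or 0.60 without the first or the other control pool (1 or 2) and 0.56 once unloaded pool 1 was left out, with limma adjusted p of 0.0798, 0.0819 and 0.0682. For rc_AI230614_s_at the same settings gave 0.72, 0.77 and 0.65, with limma adjusted p of 0.0713, 0.0646 and 0.0855. A fit on 3 arrays assumes that the lone pool of a group varies like the others. With all 4 arrays but without the mean-variance trend, both Atp1b1 calls were also lost (limma adjusted p of 0.0652 and 0.0539).

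The beta2 subunit transcript Atp1b2 was read by 3 probe sets, of which 1 was called. The signal of D90048exon_at was 14.7 and 14.2 in control pools and 36.9 and 37.1 in unloaded pools. Pools of the same group were close and the groups were apart, with pair ratios of 2.51 to 2.61. The probe set rose by 0.97 log2 (SE 0.19, limma adjusted p = 0.0283). Its control mean of 14.45 was under the filter of 21.0, so it entered the test only through the unloaded pools, and without the filter it was not called (limma adjusted p = 0.0952).

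D90048exon_g_at, designed from the same GenBank entry, gave 51.4 and 49.5 in control and 51.9 and 49.3 in unloaded pools. J04629_at gave 70.6 and 80.7 against 66.0 and 81.1. On both the groups overlapped, with log2 fold changes of 0.00 (95% interval -0.35 to 0.36) and -0.04 (-0.40 to 0.32). Those intervals lie below that of D90048exon_at, 0.53 to 1.41, and the difference between probe sets was not tested. Each pool left out ended the call of D90048exon_at, with log2 fold changes of 0.99 and 0.96 without control pool 1 or 2 and 0.98 and 0.97 without unloaded pool 1 or 2, at limma adjusted p of 0.118, 0.125, 0.176 and 0.167. With the offset at the median signal its log2 fold change was 0.54.

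Fxyd1, the phospholemman transcript, was read by 2 probe sets built on the same expressed sequence tag. The signal of rc_AA799645_at was 2269.1 and 2120.4 in control pools and 2383.8 and 2481.7 in unloaded pools. That of rc_AA799645_g_at was 888.2 and 841.3 against 1050.0 and 955.6. Both unloaded pools lay above both control pools on each probe set, by pair ratios of 1.05 to 1.17 and 1.08 to 1.25. Across all tested probe sets 25.5% had both unloaded pools above both control pools and 25.3% had both below, so such an order is common in this comparison.

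Neither Fxyd1 probe set passed. The log2 fold changes were 0.15 (SE 0.09, limma adjusted p = 0.380) and 0.21 (SE 0.10, limma adjusted p = 0.262). The 95% intervals ran from -0.05 to 0.35 and from -0.01 to 0.43. Since both derive from the same tag, they are not separate measurements of the gene.

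The largest difference of the 5 genes was on D88190_s_at, 1 of the 3 probe sets of the kinase transcript Stk39. Its ending _s_at marks probes that may match more than 1 transcript, and which transcripts it reads was not tested. The signal of D88190_s_at was 12.4 and 22.1 in control pools and 122.4 and 140.9 in unloaded pools. The control pools were both dim and the unloaded pools both bright, with pair ratios of 5.54 to 11.4. The probe set rose by 2.44 log2 (SE 0.21, limma adjusted p = 5.5e-04), the 3rd highest log2 fold change of the 5257. Its control mean of 17.25 was under the filter, so it too entered the test only through the unloaded pools, and the size of its ratios rests on dim control values. Without the filter the limma adjusted p was 0.0139, and over all 12 alternatives the log2 fold change ran from 1.68 (offset at the median signal) to 2.91 (offset of 1). These values describe a gene chosen for this difference and lend it no further support.

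Other Stk39 probe sets did not show this. The signal of rc_AI043684_at was 45.0 and 28.5 in control and 45.9 and 52.7 in unloaded pools, a log2 fold change of 0.37 (SE 0.21, limma adjusted p = 0.369). AF068261_s_at gave 33.6 and 21.9 against 9.5 and 21.4, a log2 fold change of -0.61 (SE 0.29, limma adjusted p = 0.286). On these probe sets the nearest pools of the 2 groups almost met, at 45.0 and 45.9 and at 21.9 and 21.4. Their 95% intervals, -0.12 to 0.86 and -1.30 to 0.07, lie below the 1.96 to 2.93 of D88190_s_at, and the difference between probe sets was not tested. AF068261_s_at had a mean signal of 21.6, just above the filter. Its unloaded mean of 15.45 was under the filter, so it entered the test only through the control pools. The control means of D88190_s_at, AF068261_s_at and rc_AI043684_at were 17.25, 27.75 and 36.75, against array medians of 33.9 to 35.6. The part of noise in the disagreement was not tested.

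The cotransporter transcript Slc12a2 was read by 4 probe sets that divided by direction. AF051561_s_at gave 205.1 and 222.2 in control pools and 231.6 and 238.2 in unloaded pools, slightly higher without overlap. S82233_s_at gave 55.5 and 58.8 against 31.5 and 33.5, lower without overlap at pair ratios of 0.536 to 0.604. AF086758_g_at gave 46.3 and 46.9 against 27.4 and 32.1, also lower without overlap. Of all tested probe sets, 25.5% were higher and 25.3% lower without overlap.

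No Slc12a2 probe set passed. The log2 fold change was 0.13 (SE 0.11, limma adjusted p = 0.560) for AF051561_s_at, -0.67 (SE 0.16, limma adjusted p = 0.0549) for S82233_s_at and -0.52 (SE 0.17, limma adjusted p = 0.140) for AF086758_g_at. The 95% interval of the first, -0.12 to 0.38, does not overlap those of the others, -1.04 to -0.30 and -0.92 to -0.13, and the difference between probe sets was not tested. The remaining probe set, AF086758_at, was too dim to be tested, with 8.1 and 2.0 in control and 1.6 and 2.2 in unloaded pools. On this array generation the ending _s_at marks probes that may match more than 1 transcript, and which transcripts each probe set reads was not tested.

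**Figure D2:**
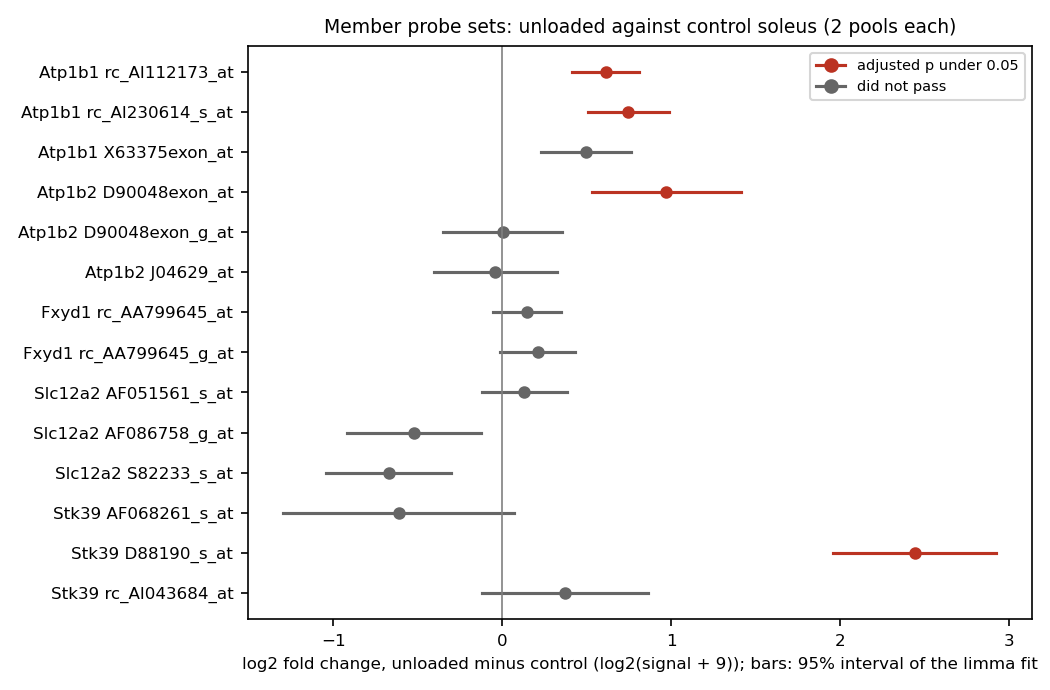
Log2 fold change (unloaded minus control, log2(signal + 9)) of the 14 tested probe sets, with 95% intervals of the limma fit. The 3 Atp1b1 intervals lie at 0.23 or higher, whereas those of Stk39 and Slc12a2 fall on both sides of 0 and do not all overlap.

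**Figure D3:**
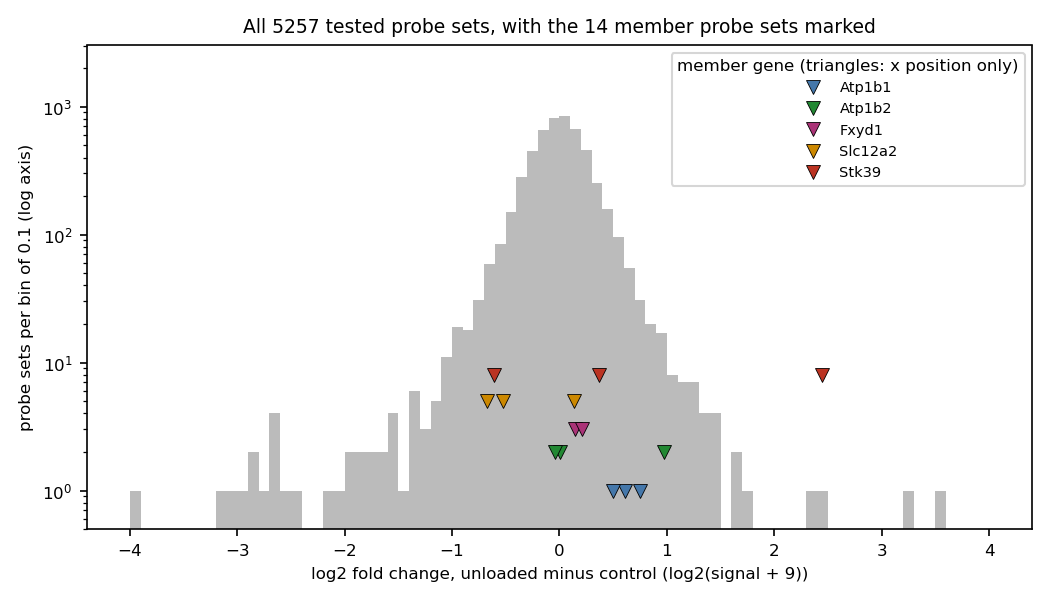
Distribution of the log2 fold changes of all 5257 tested probe sets (bars, log axis) with the 14 described probe sets as triangles, whose height has no meaning. The Stk39 probe set at 2.44 stands at the far right, and the other 13 lie between -0.67 and 0.97.

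The other genes of the pump family were read by few probe sets. Of 14 further listed genes of the sodium pump, FXYD and related proton pump family, 6 had a probe set with a single symbol and 4 were tested. By limma 0 passed, and 0 had an unadjusted p under 0.05. The beta3 subunit Atp1b3 gave 331.2 and 385.8 in control and 317.6 and 322.3 in unloaded pools (log2 fold change -0.16, SE 0.11, limma adjusted p = 0.492). Fxyd4 gave -0.23 (SE 0.16) and Fxyd2, a modulator known from the kidney pump, 0.00 (SE 0.19). Atp4a, the gastric proton pump, gave -0.21 (SE 0.20), and the pump genes Atp1a4 and Atp12a were too dim to be tested. Alpha subunits other than Atp1a4 were not analysed here.

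Among other cation-chloride cotransporters, Slc12a4 was lower in unloaded pools on both of its probe sets. It encodes KCC1, which carries potassium and chloride out of the cell, opposite to NKCC1. On rc_AI639049_s_at the signal was 468.8 and 451.8 in control and 294.1 and 338.3 in unloaded pools, and this probe set fell by 0.53 on the log2 scale (SE 0.11, limma adjusted p = 0.0324). On U55815_at it was 532.3 and 553.4 against 307.0 and 422.9 (log2 fold change -0.58, SE 0.15, limma adjusted p = 0.0673). The ending of rc_AI639049_s_at marks probes that may match more than 1 transcript. The call on rc_AI639049_s_at was lost without control pool 1 (-0.51, limma adjusted p = 0.158), control pool 2 (-0.56, 0.132), unloaded pool 1 (-0.43, 0.214) or unloaded pool 2 (-0.63, 0.0975).

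Slc12a7, which encodes the related KCC4, gave 109.2 and 118.1 in control and 87.8 and 86.5 in unloaded pools, a log2 fold change of -0.35 (SE 0.13, limma adjusted p = 0.176). Oxsr1, the closest relative of Stk39, gave 78.1 and 65.2 against 83.6 and 60.4 (0.00, SE 0.18), with overlapping groups. Slc12a3, known as the thiazide-sensitive cotransporter of the kidney, was below the filter on U10097_at, at 8.4 and 6.9 in control and 20.2 and 35.5 in unloaded pools. Without the filter U10097_at was not called (limma adjusted p = 0.137). The other Slc12a3 probe set, rc_AA965132_s_at, was also below the filter and its groups overlapped, at 8.6 and 8.1 against 8.0 and 14.5. Counted by the probe set of highest mean log2 signal, 0 of 3 tested genes of the cotransport and WNK list passed by limma, with 2 lower at an unadjusted p under 0.05, out of 16 listed. Over all 5257 tested probe sets, 1092 had an unadjusted limma p under 0.05.

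**Figure D4:**
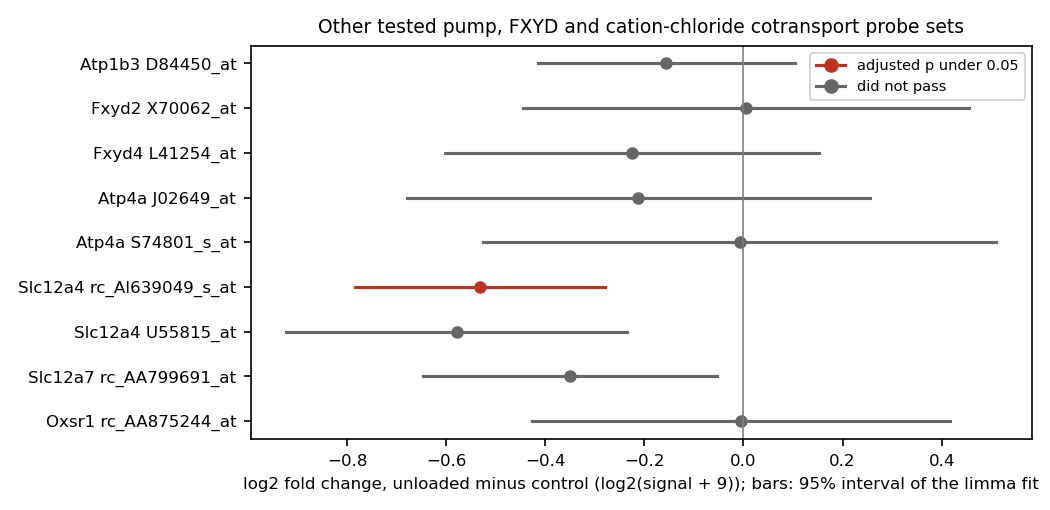
Log2 fold change with 95% interval of the 9 tested probe sets of other pump, FXYD and cation-chloride cotransport genes, drawn as for the described genes. Both Slc12a4 probe sets lie below 0, at -0.53 and -0.58, and the former passed.

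Kinases, phosphatases and hormone receptors that act on the pump or on cotransporters gave 0 calls among 14 tested genes by limma, with 1 at an unadjusted p under 0.05. Their log2 fold changes ran from -0.37 to 0.19 around a median of -0.05. Further sodium, proton and bicarbonate transporters gave 0 calls among 9 tested genes, with 2 at an unadjusted p under 0.05, between -0.26 and 0.31 around a median of -0.02. Of all 5257 tested probe sets, 1092 had an unadjusted limma p under 0.05.

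Markers of the labelled tissue were strong on every array, with signals of 4067.1 to 11198.2 over 5 measured skeletal muscle genes. In the fast-fibre contractile list 7 of 12 tested genes rose (Tnni2, Atp2a1, Myl11, Tnnt3, Tpm1, Myh2 and Tnnc2, by 0.46 to 1.04 log2), against 2.59% of all probe sets, and 5 did not pass, among them Myh1 at -0.04 and Pvalb at -0.14. The summed signal of the list was 15222 to 16745.4 in control and 22423.6 to 22908.6 in unloaded pools. Leaving out control pool 1 or 2 gave 5 or 1 such calls, and leaving out either unloaded pool gave 0. There were 2 without the filter on dim probe sets and 1 without the mean-variance trend. The slow-fibre list had 0 calls among 8 by limma (0 at an unadjusted p under 0.05), with sums of 38987 to 39867.2 and 37662.5 to 41228.8. In RNA from whole muscle, fewer cells of a type and less RNA per cell cannot be told apart.

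Markers of other cells were measured beside these. By its probe set of highest mean signal, no marker was at 0 on any array, and the Schwann cell factor Sox10 was near it, at 2.6 and 4.0 in control and 2.2 and 2.6 in unloaded pools. Smooth muscle markers (4 of 5 measured) summed to 968.9 to 1086.7 in control and 1205.3 to 1306 in unloaded pools, and 1 of their 8 tested probe sets, X06801cds_i_at of Acta2, rose (0.82, SE 0.15, limma adjusted p = 0.0221; 0.66 to 0.98 and no longer called when any 1 pool was left out). Blood markers (2 of 4) summed to 4256.1 to 4507.5 and 5035.3 to 5131.5. Endothelial markers (4 of 8) gave 369.8 to 371.5 and 315.7 to 342.6, and Schwann cell and nerve markers (7 of 9, 4 of them under the filter) 704.4 to 739.3 and 662 to 692.3. Adipocyte (4 of 5) and leukocyte (3 of 5) sums overlapped between the groups. The part of any of these cells, or of the fast fibres, in the values of the 5 genes was not tested.

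Transcripts of like pattern were sought for the probe set of smallest p of each gene, by the Euclidean distance over the 4 pools of log2 signals set relative to the control mean. For rc_AI230614_s_at of Atp1b1 the closest were Chn2, Oxr1 and Alas1, at distances of 0.028, 0.097 and 0.11. For D90048exon_at of Atp1b2 they were Pde4a, Tnfrsf21 and Cyp27a1 (probe set M38566mRNA_s_at, log2 fold change 0.91), at 0.048, 0.10 and 0.13. For S82233_s_at of Slc12a2 they were Cx3cl1, Vegfa and Glul, at 0.064, 0.065 and 0.077.

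D88190_s_at of Stk39 had no close neighbour, and the nearest were Cyp27a1, Mchr1 and G0s2 at 0.50, 1.06 and 1.30. This Cyp27a1 probe set was Y07534cds_s_at (log2 fold change 2.32), a different one from that near Atp1b2, and the 2 differ in size. For Fxyd1 (rc_AA799645_g_at) there were 474 probe sets of other genes within 0.2, led by Tmem69, Kif3c and Ide. With 4 pools in 2 groups such a distance mostly reflects the size of the group difference, and it is given as a description.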

How the data were processed

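RNA of 4 soleus pools was read on 4 Affymetrix arrays. The authors deposited 1 table of linear intensity values per probe set and array, made with MAS5 per the submitters' processing notes (version and settings not given in the sources used here). Trimmed means (2% off each end) were 150.2 to 150.3 on all arrays, and medians 33.9 to 35.6, so no further normalization was applied. Detection calls, scan dates and batches were not used here.

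The 59 array control probe sets were left out. Names came from the platform annotation, updated by gene ID to RefSeq (GRCr8): 7006 probe sets had 1 symbol (6985 matched), 308 several and 1426 none. Signals became log2(signal + 9), 9 being the 25th percentile of all signals. A mean signal of 21.0 or more (40th percentile) was required for testing with limma 3.58.1 in R 4.3.3 (eBayes with a mean-variance trend, Benjamini-Hochberg adjustment over 5257 probe sets, threshold 0.05, 2 residual and 5.80 prior degrees of freedom). The number of arrays limits the precision, and a permutation test of 2 against 2 pools cannot give a two-sided p below 0.333. The limma fit was run, without the filter, on simulated data drawn from its own variance model with independent errors. The filter, the offset and the choice of genes were not tested in this way.

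The genes and lists were chosen with earlier results of these data known. Named were all probe sets of the 5 genes, listed genes that passed, and for each of the 5 genes the 3 most alike probe sets. Further measured genes of the pump and cotransport lists were named too, dim ones included. A listed gene was counted by its probe set of highest mean log2 signal. Alternatives were other offsets, filters and scalings, a fit without the trend, a block for pool number, and leaving out each pool. Between pools of equal number the correlation over probe sets of deviations from the group means was -0.04. With 2 pools per group this value cannot settle whether equal numbers mark a pairing. Plots used matplotlib 3.10.9 (Python 3.11.15).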

Additional observations from a re-analysis of the deposited data

How the results depend on the processing

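Directions held in all alternatives run (12, or 11 where a stricter filter removed the probe set) for 12 of the 14 tested probe sets of the 5 genes. The exceptions were D90048exon_g_at and J04629_at of Atp1b2, with log2 fold changes of -0.028 to 0.035 and -0.17 to 0.093 when a pool was left out. Of the 4 calls, 3 remained without the filter on dim probe sets and with the pool number as a block, 2 without the mean-variance trend, and 1 to 3 when a pool was left out. The 2 kept without the trend were D88190_s_at of Stk39 and D90048exon_at of Atp1b2, and both Atp1b1 calls were lost. Median scaling added X63375exon_at of Atp1b1, for 5, and the filter at the 60th percentile added it but left out D90048exon_at. Over all probe sets 136 were higher and 140 lower. These counts were 42 and 48 without the filter, 52 and 61 without the trend, 78 and 87 with the pool number as a replicate block, and 22 to 43 and 38 to 55 with a pool left out. With that block D90048exon_at of Atp1b2 was lost (limma adjusted p = 0.0823), as was the call of Slc12a4 (0.0689). With a pool left out, probe sets near 0 changed sign for Fxyd2 (-0.089 to 0.099), Atp4a (-0.44 to 0.018 on J02649_at, -0.19 to 0.17 on S74801_s_at) and Oxsr1 (-0.21 to 0.20). Under quantile normalization and median scaling S74801_s_at gave 0.017 and 0.015, and Oxsr1 0.0058 and 0.022. The cause of these shifts was not tested. Background was not measured here, and control means of D88190_s_at of Stk39 and D90048exon_at of Atp1b2 lay under the filter.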
